A study of Mus musculus with 51 samples.

Results

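Pericytes and vascular smooth muscle cells, together called mural cells, were followed here through 10 marker genes in gastrocnemius, a mixed muscle of the mouse calf. The genes were Acta2, Myh11, Tagln and Cnn1 of the contractile apparatus, Pdgfrb, Notch3 and Cspg4 of the cell surface, and Rgs5, Kcnj8 and Abcc9, which are used as pericyte markers. They were chosen by name, and each had a row among the 48321 gene symbols of both count tables. All 10 passed the filter on low counts in every fit.

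The 51 libraries, 1 per animal, came in 2 batches of QuantSeq, a method that counts 1 tag from the 3′ end of each captured transcript. Batch 1 held Bmal1 fx/fx controls and Bmal1 knockouts, on regular chow (4 controls, 3 knockouts) or on a high-fat diet (7 controls, 5 knockouts). Batch 2 was on a high-fat diet throughout and held 3 lines: Bmal1 (8 fx/fx controls, 4 knockouts), Vhl (6 fx/fx controls, 4 knockouts), and Bmal1 with Vhl (6 controls floxed at both genes, 4 knockouts of both, called double knockouts). Bmal1, also named Arntl, encodes a transcription factor of the circadian clock. Vhl encodes the factor that marks hypoxia-inducible factors (HIF) for breakdown. The study's design text calls the Bmal1 deletion specific to skeletal muscle. The sources used here do not give the Cre driver, whether controls carried it, or the animals' age, sex, harvest time and weeks of diet. Muscles were homogenized whole, so the libraries mix fibres, vessels and all other cells.

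Mural cells wrap the endothelial tube of blood vessels. Smooth muscle cells of arterioles contract through actin and myosin and set blood flow, and pericytes sit on capillaries, which are dense in skeletal muscle. Endothelial PDGF-B recruits both through the receptor PDGFRB, and contact through Notch ligands and NOTCH3 keeps them in place. In smooth muscle, serum response factor turns on the contractile genes through CArG boxes, short A/T-rich stretches framed by CC and GG.

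RefSeq promoter entries (GRCm38.p6) matched 7 of the 10 genes. The 250 bases before the start are printed for the 3 of these 7 that rose in both knockouts lacking Vhl and did not overlap their controls in either (values further on). Acta2 (chr19:34255374-34255623, minus strand), Rgs5 (chr1:169655251-169655500, plus) and Notch3 (chr17:32166891-32167140, minus) read 5′ to 3′, with CArG boxes that hold 1 G or C in the core, and the HIF core motif ACGTG on either strand, in capitals. The start is RefSeq's: that of Acta2 lies inside the gene as GENCODE places it, so most of its printed stretch is within that span, and that of Notch3 lies just outside it.
Acta2: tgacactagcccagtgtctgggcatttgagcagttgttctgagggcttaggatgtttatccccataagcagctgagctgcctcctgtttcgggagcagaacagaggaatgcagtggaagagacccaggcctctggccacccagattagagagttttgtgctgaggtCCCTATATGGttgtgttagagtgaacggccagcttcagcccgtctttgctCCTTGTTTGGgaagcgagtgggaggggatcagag
Rgs5: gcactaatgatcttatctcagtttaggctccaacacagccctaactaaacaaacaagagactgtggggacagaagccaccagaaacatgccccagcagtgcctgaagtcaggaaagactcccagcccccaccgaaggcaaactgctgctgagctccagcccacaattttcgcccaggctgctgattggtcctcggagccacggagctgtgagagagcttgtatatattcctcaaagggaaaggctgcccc
Notch3: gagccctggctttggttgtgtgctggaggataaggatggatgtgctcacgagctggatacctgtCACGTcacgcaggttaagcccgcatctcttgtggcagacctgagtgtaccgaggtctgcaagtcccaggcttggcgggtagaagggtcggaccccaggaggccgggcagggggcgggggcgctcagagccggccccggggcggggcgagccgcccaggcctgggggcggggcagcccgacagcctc
Acta2 held a pair of CArG boxes with 1 G or C in the core, CCCTATATGG from 84 to 75 bases and CCTTGTTTGG from 34 to 25 bases before the start. Such a box was found in 7.24% of 32851 promoters of the same length, and a CArG box with only A and T in its core, present in 1.47%, was in none of the 7 members. ACGTG occurred once, in Notch3, on the minus strand from 186 to 182 bases before the start, against 16.6% of all promoters. The full E-box CACGTG, which BMAL1 and its partner bind and which contains ACGTG, was in none of the 7 and in 6.02% of all promoters. TGGGAA, the core bound by the Notch factor RBPJ, was in Acta2 (bases 27 to 22, overlapping the nearer CArG-like box) and Abcc9 (221 to 216), and in 21.6% of all promoters. The search for CArG boxes with 1 G or C was added after the sequences had been seen.

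Positions are on GRCm38 with GENCODE M21. Acta2 lies on chromosome 19 (34241090 to 34255590, minus strand), Myh11 on chromosome 16 (14194535 to 14291372, minus) and Rgs5 on chromosome 1 (169655501 to 169695813, plus). Tagln (45929619 to 45936058, minus), Cnn1 (22099216 to 22109630, plus) and Cspg4 (56865033 to 56899870, plus) lie on chromosome 9. Pdgfrb lies on chromosome 18 (61045150 to 61085061, plus) and Notch3 on chromosome 17 (32120820 to 32166852, minus). Kcnj8 (142564837 to 142571614, minus) and Abcc9 (142587862 to 142702315, minus) are neighbours on chromosome 6. The last 108 bases of Tagln overlap the end of Pcsk7 on the opposite strand, which held 647 counts in batch 1 and 1470 in batch 2. Where the tags of Tagln fell was not examined. The 3′ end of Notch3 lies inside the antisense gene Gm17276, which held 5 counts per batch. The sources used here do not say whether the counting used strand.

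Depth ran from 8.72 to 14.7 M counts per library in batch 1 and from 6.95 to 14.7 M in batch 2. The mitochondrial share lay between 23.3 and 42.4% in the former and between 16.6 and 38.8% in the latter. Double knockout 1 was the lowest of batch 2 in depth and in mitochondrial share. Arntl was lower in the Bmal1 knockouts of batch 1 on the high-fat diet (log2 fold change -1.02 ± 0.22 SE, adjusted p = 0.00255) and in the double knockouts (-0.48 ± 0.13, adjusted p = 0.00213). It missed the threshold in the Bmal1 knockouts on chow (-0.91 ± 0.28, adjusted p = 0.0821) and in those of batch 2 (-0.24 ± 0.13, adjusted p = 0.239). In Vhl knockouts, not labelled as lacking Bmal1, Arntl was about as low as in the latter (-0.27 ± 0.13, adjusted p = 0.0966). Vhl was lower in Vhl knockouts (-0.85 ± 0.30, adjusted p = 0.0217) and double knockouts (-0.78 ± 0.26, adjusted p = 0.018). The deleted parts are not given, and a 3′ tag outside them checks nothing. Lymphocyte transcripts exceeded 5 times the batch median in 4 libraries: chow control 2 and chow knockout 1 (94.0 and 120.3 CPM summed over 14 markers), Vhl knockout 2 (9.39 CPM) and double knockout 1 (9.76 CPM). Calls of members that are lost without these 4 are given with their values.

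The order of levels was the same in the 3 floxed control groups of batch 2 for the most abundant genes. Levels are CPM, the count of a gene in each M of scaled library counts. Since QuantSeq gives 1 tag per transcript whatever its length, they can be set side by side between genes. Rgs5, a regulator that shortens G protein signals, was the highest, at group means of 173 ± 11.6 (SD, n = 8), 185 ± 7.47 (n = 6) and 184 ± 8.32 CPM (n = 6) in Bmal1, Vhl and double controls. Abcc9, which encodes the sulfonylurea receptor SUR2 of ATP-sensitive potassium channels, followed at 110 ± 4.14, 115 ± 10.9 and 120 ± 4.98 CPM. Acta2, smooth muscle actin, stood at 44.9 ± 5.36, 44.3 ± 6.73 and 39.5 ± 3.67 CPM. Tagln, an actin-binding protein, ranged over means of 15.4 to 18.8 CPM and Myh11, smooth muscle myosin heavy chain, over 12.9 to 14.0 CPM, and their animals overlapped. Kcnj8 (7.14 to 7.45 CPM), Notch3 (6.29 to 7.09 CPM), Pdgfrb (5.70 to 6.95 CPM) and Cspg4 (4.91 to 5.31 CPM) lay within each other's spread. Cnn1, calponin, was at 0.92 to 1.02 CPM, or 3 to 23 counts per control library, so that its values carry large counting error. In the 4 groups of batch 1, scaled separately, the same genes led: group means were 152 to 184 CPM for Rgs5, 88.5 to 104 for Abcc9, 25.7 to 51.8 for Acta2, 14.0 to 25.1 for Tagln and 12.3 to 16.7 for Myh11. Those of Kcnj8 (7.28 to 8.12 CPM), Notch3 (5.85 to 7.06), Pdgfrb (5.85 to 6.56) and Cspg4 (4.18 to 6.19) were again close to each other, and Cnn1 was the lowest (0.47 to 1.52).

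Loss of Vhl on the high-fat diet came with higher mural transcripts: 6 of the 10 rose, Abcc9 fell, and 3 did not pass. Of all genes tested 37.2% were called, 17.7% as higher and 19.5% as lower. The median log2 fold change of the 10 was 0.75, against 0.01 over all 13093 genes. In double knockouts 7 rose, Abcc9 fell and 2 did not pass, against 35.4% of all genes called (17.4% higher, 18.1% lower), and the median of the 10 was 0.63, against 0.01. Acta2, Myh11, Pdgfrb, Notch3 and Rgs5 were higher in every knockout than in every control of their line, for both knockouts. Among all genes, 10.1% lay wholly above their controls after Vhl loss and 11.2% after double loss. On library totals alone, where 5815 genes were called higher and 684 lower after Vhl loss and 6230 and 778 after double loss, 9 and 10 of the 10 members rose and none fell. Without the lymphocyte libraries double loss called 5 members higher and none lower, and lost the calls of Cspg4 (0.40, adjusted p = 0.062), Kcnj8 (0.45, adjusted p = 0.0555) and Abcc9 (-0.11, adjusted p = 0.201). In whole muscle, more mural cells and more RNA of these genes per cell cannot be told apart. The calls are from edgeR's quasi-likelihood test with Benjamini-Hochberg adjustment, as are all adjusted p-values here.

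**Figure D1:**
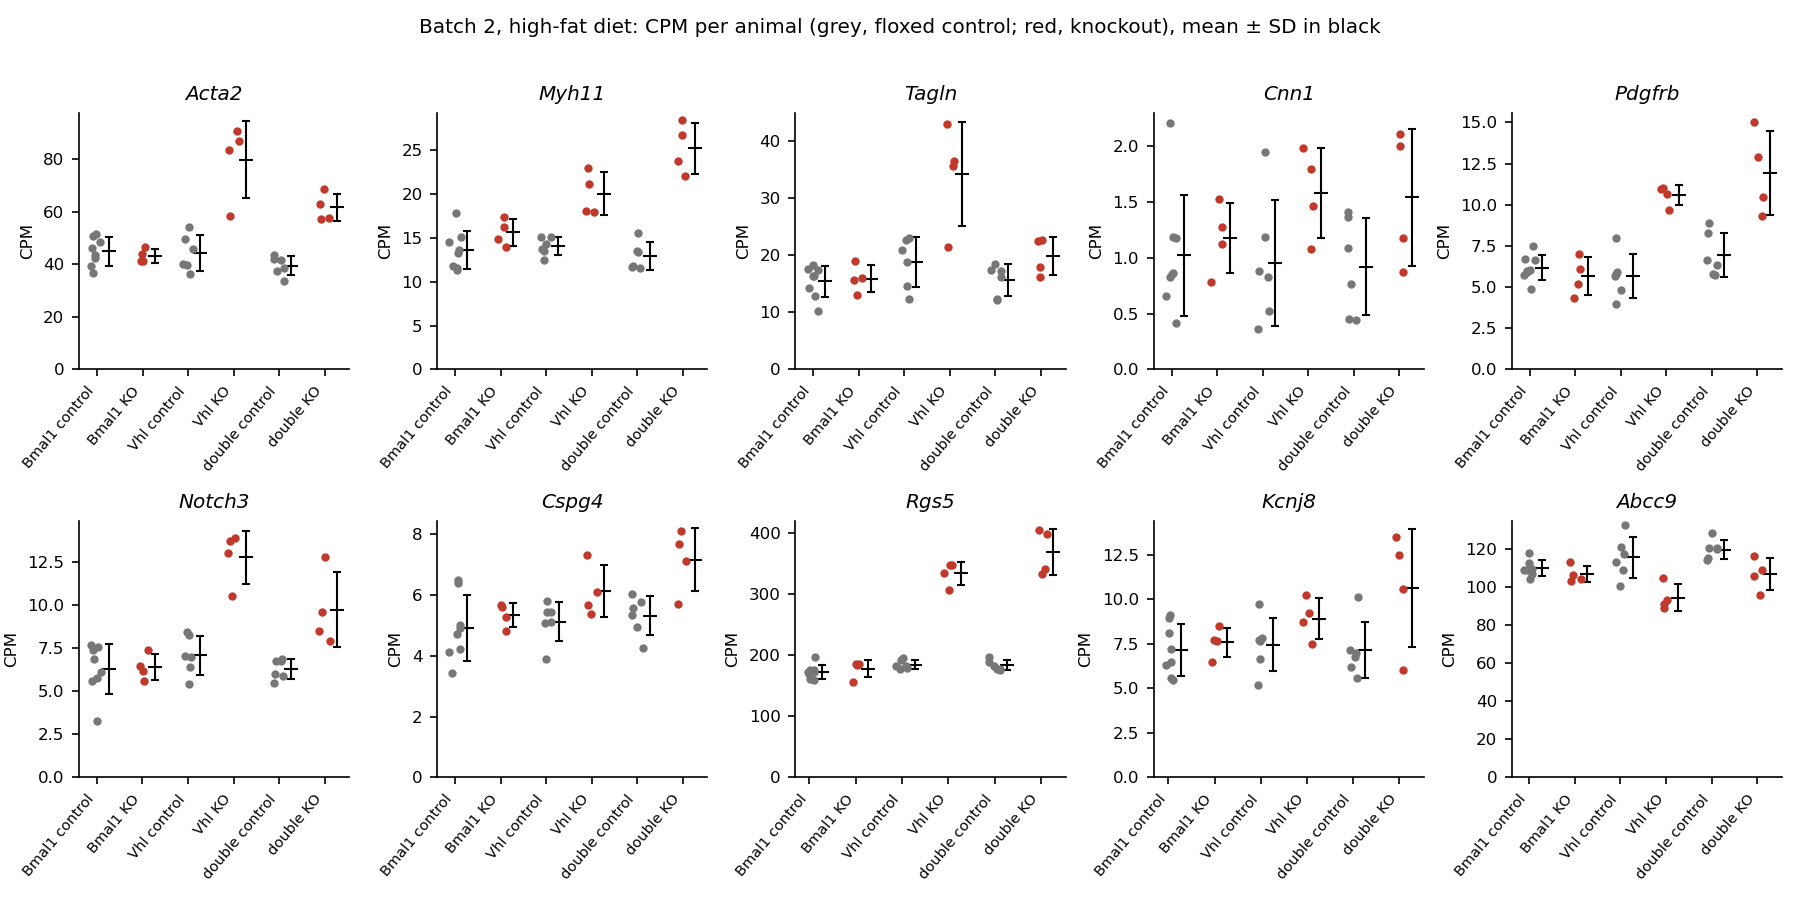
CPM of the 10 mural genes in each animal of batch 2 (grey, floxed control; red, knockout; black, mean ± SD; each panel has its own axis from 0). Rgs5 lay between 306.9 and 405.6 CPM in the 8 animals lacking Vhl and at 197.6 CPM or below in all others, while Abcc9 overlapped its controls.

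Acta2 stood at 83.7, 58.3, 90.6 and 86.9 CPM in Vhl knockouts 1 to 4, and its controls at 36.4, 43.0 and 54.0 CPM (lowest, median, highest). Knockout 2 was the lowest of the 4 and still above every control. The log2 fold change was 0.84 ± 0.10 (SE, adjusted p = 1.87e-08). In double knockouts Acta2 was at 57.4, 57.6, 63.1 and 68.5 CPM, against 33.6, 40.1 and 43.7 CPM in controls. The groups did not overlap, and the log2 fold change was 0.65 ± 0.10 (adjusted p = 3.75e-06).

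Myh11, the most specific of the smooth muscle markers, was at 18.0, 17.9, 22.9 and 21.1 CPM in Vhl knockouts and at 12.4, 14.0 and 15.1 CPM in their controls. All 4 knockouts lay above all controls, and the log2 fold change was 0.51 ± 0.11 (adjusted p = 2.72e-04). In double knockouts it reached 23.7, 26.7, 22.0 and 28.3 CPM, against 11.5, 12.6 and 15.6 CPM. Here the groups stood further apart, with a log2 fold change of 0.97 ± 0.11 (adjusted p = 3.74e-10).

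Tagln was at 35.7, 21.5, 43.0 and 36.6 CPM in Vhl knockouts, against 12.3, 19.9 and 23.1 CPM in controls. Knockout 2, which was also the lowest for Acta2 and one of the 4 libraries with lymphocyte transcripts, fell within the control range. The log2 fold change was 0.85 ± 0.18 (adjusted p = 3.59e-04). Double knockouts had 18.0, 22.7, 16.2 and 22.5 CPM, against 12.2, 16.8 and 18.5 CPM. These groups overlapped, and the change of 0.35 ± 0.18 did not pass (adjusted p = 0.146). Cnn1 rested on 8 to 29 counts per knockout library and passed in neither line, with 0.67 ± 0.39 after Vhl loss (adjusted p = 0.186) and 0.76 ± 0.38 after double loss (adjusted p = 0.115).

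Pdgfrb, the receptor through which PDGF-B recruits mural cells, was at 11.0, 9.70, 10.7 and 11.0 CPM in Vhl knockouts, against 3.98, 5.75 and 7.98 CPM in controls. The knockouts lay close together and above all controls, at a log2 fold change of 0.87 ± 0.16 (adjusted p = 1.56e-05). Double knockouts had 15.0, 12.9, 10.5 and 9.31 CPM, against 5.72, 6.50 and 8.92 CPM. The lowest knockout was just above the highest control, and the change was 0.78 ± 0.15 (adjusted p = 4.4e-05).

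Notch3, the Notch receptor of mural cells, was at 13.0, 10.6, 13.9 and 13.7 CPM in Vhl knockouts and at 5.42, 7.02 and 8.42 CPM in controls. No knockout reached down to a control, and the log2 fold change was 0.84 ± 0.15 (adjusted p = 1.83e-05). Double knockouts had 12.8, 7.94, 9.64 and 8.53 CPM, against 5.46, 6.37 and 6.91 CPM. Animal 1 stood above the other 3, all of them above the controls, with a change of 0.61 ± 0.16 (adjusted p = 0.00152).

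Cspg4 encodes the proteoglycan NG2 on the pericyte surface. In Vhl knockouts it was at 5.37, 6.08, 5.67 and 7.32 CPM, against 3.90, 5.26 and 5.78 CPM in controls. The groups overlapped, and the change of 0.25 ± 0.16 did not pass (adjusted p = 0.214). In double knockouts it rose, from 4.26, 5.46 and 6.01 CPM in controls to 7.67, 8.08, 5.70 and 7.12 CPM, with 1 knockout inside the control range (0.42 ± 0.15, adjusted p = 0.0237). That call was lost without double knockout 1 (adjusted p = 0.0602), without double knockout 2 (0.103) or without double control 4 (0.061).

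Rgs5 gave the clearest separation. Vhl knockouts had 306.9, 334.8, 347.3 and 348.4 CPM, against 177.4, 182.1 and 195.5 CPM in controls. Double knockouts had 405.6, 398.9, 333.8 and 341.3 CPM, against 176.5, 180.2 and 197.5 CPM. The lowest knockout of either line stood far above the highest control. The log2 fold changes were 0.85 ± 0.06 (a fold of 1.81, adjusted p = 3.76e-15) and 1.01 ± 0.06 (a fold of 2.01, adjusted p = 5.62e-18).

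Kcnj8 and Abcc9 encode the pore Kir6.1 and the regulatory subunit SUR2 of the vascular ATP-sensitive potassium channel, which relaxes vessels when it opens. Kcnj8 was at 7.46, 9.24, 8.70 and 10.3 CPM in Vhl knockouts, against 5.18, 7.66 and 9.70 CPM in controls. The groups overlapped, and the change of 0.26 ± 0.18 did not pass (adjusted p = 0.265). In double knockouts Kcnj8 rose to 13.5, 10.6, 12.5 and 6.03 CPM, against 5.60, 6.86 and 10.1 CPM. Animals 1 to 3 lay above every control and animal 4 near the lowest (0.57 ± 0.17, adjusted p = 0.00797). The call was lost without double knockout 1 (adjusted p = 0.0567) or 3 (0.05).

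Abcc9 went the other way. It was at 91.0, 104.5, 93.0 and 88.8 CPM in Vhl knockouts, against 100.4, 115 and 132 CPM in controls. Knockout 2 fell in the control range and the other 3 below it. The log2 fold change was -0.29 ± 0.07 (adjusted p = 5.09e-04). Double knockouts had 95.7, 116, 106 and 109 CPM, against 114, 120 and 128 CPM, and 1 of the 4 overlapped the controls (-0.16 ± 0.07, adjusted p = 0.0474). The direction depends on scaling: on library totals alone the median of all genes moved to 0.35 after Vhl loss and 0.37 after double loss, and Abcc9 stood at 0.07 and 0.19, positive but below those medians. No other member that passed changed sign. In double knockouts the Abcc9 call was lost when any 1 of 7 libraries was left out, with an adjusted p of up to 0.225. SUR2 is also made by muscle fibres, where it pairs with Kir6.2, and in which cells Abcc9 changed was not tested. Kcnj11, the gene of Kir6.2, fell from a control median of 76.5 to 46.3 CPM after Vhl loss (-0.69 ± 0.08, adjusted p = 8.65e-10). After double loss it fell from 82.0 to 49.0 CPM (-0.74 ± 0.08, adjusted p = 6.86e-11). Its fall was not particular to Vhl loss. In Bmal1 knockouts of batch 2 Kcnj11 was at 58.9 to 62.9 CPM, against 67.4 to 87.8 CPM in controls. In those of batch 1 on the high-fat diet it was at 45.0 to 52.5 CPM, against 52.9 to 65.6 CPM. On chow the groups overlapped.

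Differences between knockouts were tested on the effects themselves. Those set against the Bmal1 effect share the animals of the Bmal1 line. The difference of the double and the Vhl effect uses none of these, but shares the Vhl or the double line with each of the others. Set against the effect of Bmal1 loss in the same batch, the effect of Vhl loss was greater for 5 members and lower for Abcc9. Of all genes 25.3% were called, 12.2% with the greater and 13.1% with the lower value after Vhl loss. The difference of the log2 fold changes was 0.90 ± 0.15 for Acta2, 0.80 ± 0.26 for Tagln, 1.00 ± 0.22 for Pdgfrb, 0.81 ± 0.22 for Notch3 and 0.81 ± 0.09 for Rgs5. For Abcc9 it was -0.25 ± 0.09, and 0.03 on library totals alone, where 3264 genes had the greater and 590 the lower value. The effect of double loss exceeded that of Bmal1 loss for 4 members, with 16.7% of all genes called and 7.69% in that direction (2510 genes greater and 294 lower on library totals alone). Those were Acta2 (0.70 ± 0.15), Myh11 (0.77 ± 0.15), Pdgfrb (0.90 ± 0.22) and Rgs5 (0.97 ± 0.09), and Notch3 missed the threshold (0.58 ± 0.22, adjusted p = 0.0602). Between the double and the Vhl effect edgeR called none of the 10 (8.56% of all genes), with 1 at an unadjusted p under 0.05, and DESeq2 called 1. That was Myh11, higher by 0.46 ± 0.16 in the double knockout (adjusted p = 0.0563 in edgeR, 0.0413 in DESeq2). The Vhl effect on Tagln was the greater by 0.50 ± 0.26, which did not pass (adjusted p = 0.257).

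**Figure D2:**
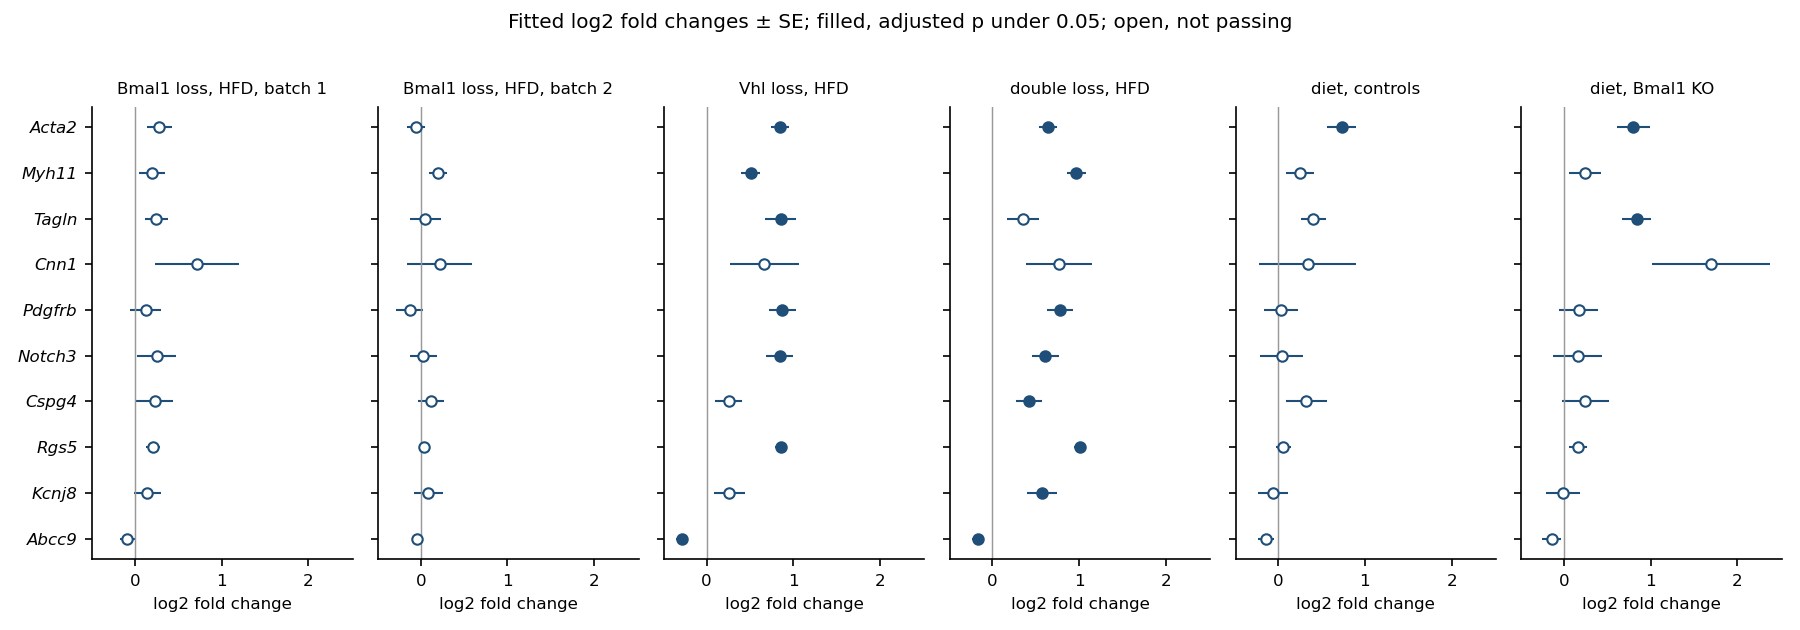
Log2 fold changes of the 10 genes (points) with SE (bars) in 6 comparisons, filled where the adjusted p was under 0.05. Filled points crowd the panels of Vhl and double loss, where Abcc9 is the only one left of 0, and the Bmal1 panels hold none.

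Other genes of the same cells and pathways moved in part. Of 22 further pericyte genes tested, 11 rose and Aoc3 fell (-0.89 ± 0.35, adjusted p = 0.0493) after Vhl loss, and 12 rose and none fell after double loss. Without the lymphocyte libraries 12 and 9 rose and none fell. Ndufa4l2, a mitochondrial protein of pericytes that HIF also induces in many cell types, rose by 4.00 ± 0.18 and 3.96 ± 0.18. Ednrb, an endothelin receptor, rose by 1.56 ± 0.15 and 1.54 ± 0.15. The 2 chains of soluble guanylate cyclase, the receptor of nitric oxide, rose together: Gucy1a3 by 1.19 ± 0.16 and 1.23 ± 0.15, and Gucy1b3 by 1.23 ± 0.19 and 1.09 ± 0.18. The connexin gene Gja4 rose by 1.55 ± 0.24 after Vhl loss.

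Of 20 further genes of smooth muscle contraction and its control, 8 rose and 6 fell after Vhl loss, and 9 rose and 4 fell after double loss. On library totals alone the split was 12 to 2 and 11 to 2, and without the lymphocyte libraries 8 to 4 and 7 to 3. Pln, which encodes the calcium pump inhibitor phospholamban and is also made in slow fibres, rose by 3.01 ± 0.23 and 3.72 ± 0.20. Mylk, the kinase that starts smooth muscle contraction, rose by 0.54 ± 0.09 and 0.73 ± 0.09, and the myosin light chain gene Myl9 by 0.60 ± 0.13 after Vhl loss. Synpo2 fell by 0.57 ± 0.08 and 0.88 ± 0.08, and Mkl2, a coactivator of serum response factor, by 0.68 ± 0.10 after double loss. Among those of these 20 that passed, only Mustn1 changed sign on library totals alone (-0.28 to 0.08, double loss).

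Genes of the PDGF, Notch, angiopoietin and TGF-beta pathways that join vessels and mural cells moved in part. Pdgfb, the endothelial ligand of PDGFRB, rose by 1.02 ± 0.13 after Vhl loss (adjusted p = 2.16e-08) and by 0.55 ± 0.13 after double loss (adjusted p = 6.56e-04). It was the only gene to rise of the 5 other PDGF genes, and Pdgfa fell by 0.47 ± 0.11 after Vhl loss. Of 12 other Notch genes 10 rose after Vhl loss and 8 after double loss (6 without the lymphocyte libraries), and none fell. Those included the target Nrarp (1.53 ± 0.19 and 1.55 ± 0.20), the receptor Notch1 (0.89 ± 0.15 and 1.10 ± 0.15) and the ligand Dll4 (1.42 ± 0.24 and 0.97 ± 0.23). Of 17 genes of angiopoietin, TGF-beta and sphingosine phosphate signalling 9 rose after Vhl loss, and 8 rose and 2 fell after double loss. Those that fell were Angpt1 (-0.37 ± 0.12) and Tgfb2 (-0.32 ± 0.09), and Tgfb2 stood at 0.04 on library totals alone. The endothelial receptors S1pr1 (1.15 ± 0.11 and 1.08 ± 0.11) and Tie1 (1.40 ± 0.14 and 1.12 ± 0.15) were among those that rose. Tgfb3 rose more in double knockouts than in Vhl knockouts (1.46 ± 0.10 against 0.60 ± 0.10; difference 0.87 ± 0.14, adjusted p = 2.34e-05). Among 6 other RGS and channel genes, Rgs4, a relative of Rgs5, rose by 2.80 ± 0.15 and 2.35 ± 0.15. Rgs2 rose after double loss (1.26 ± 0.15), and there by more than after Vhl loss (difference 1.02 ± 0.23, adjusted p = 0.00321).

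Markers of other cells moved in the same libraries. Of 12 endothelial markers 11 rose after Vhl loss and 11 after double loss, with medians of 1.01 and 0.97. Flt1, a receptor of vascular endothelial growth factor, rose by 1.08 ± 0.07 and 1.22 ± 0.07, and Cdh5, the cadherin that joins endothelial cells, by 1.17 ± 0.10 and 1.04 ± 0.10. Their summed level was 508.7 to 623.1 CPM in Vhl knockouts against 270.1 to 303.6 CPM in controls, and 471.3 to 559.4 CPM in double knockouts against 255.3 to 279.9 CPM. Of 12 fibre markers 10 fell in each (5 fell and 1 rose in each on library totals alone), and their summed level was 116200 to 135900 CPM against 160900 to 202900 CPM after Vhl loss, and 142500 to 145600 CPM against 191800 to 202800 CPM after double loss. Fibroblast markers rose in 3 and 2 of 10, and macrophage markers in 5 (1 without the lymphocyte libraries) and 1 of 9. Of 7 markers of satellite cells and myoblasts 3 rose and 1 fell after Vhl loss, and 6 rose after double loss. Their sum was 75.3 to 127 CPM in Vhl knockouts against 66.0 to 76.5 CPM in controls. In double knockouts it was 104 to 128 CPM against 59.4 to 87.2 CPM. Markers of this list also rose after Bmal1 loss alone (values further on). Of 8 adipocyte markers 1 and 2 rose and 2 and 3 fell. Mitochondrial transcripts took 32.2% ± 3.49 of counts in Vhl knockouts against 37.2% ± 2.29 (SD) in controls, and 19.7% ± 3.04 in double knockouts against 27.4% ± 2.64. No marker of these lists was at 0 in all libraries. Their part in the rise of the 10 mural genes was not tested.

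The level of Rgs5 was also read against the endothelial sum in each library. It made up 53.9 to 65.8% of that sum in Vhl knockouts and 59.0 to 68.5% in their controls, with medians of 57.0 and 65.4%. In double knockouts it made up 64.4 to 75.8%, against 63.6 to 73.9%, with medians of 72.5 and 67.6%. Both pairs of ranges overlapped.

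**Figure D3:**
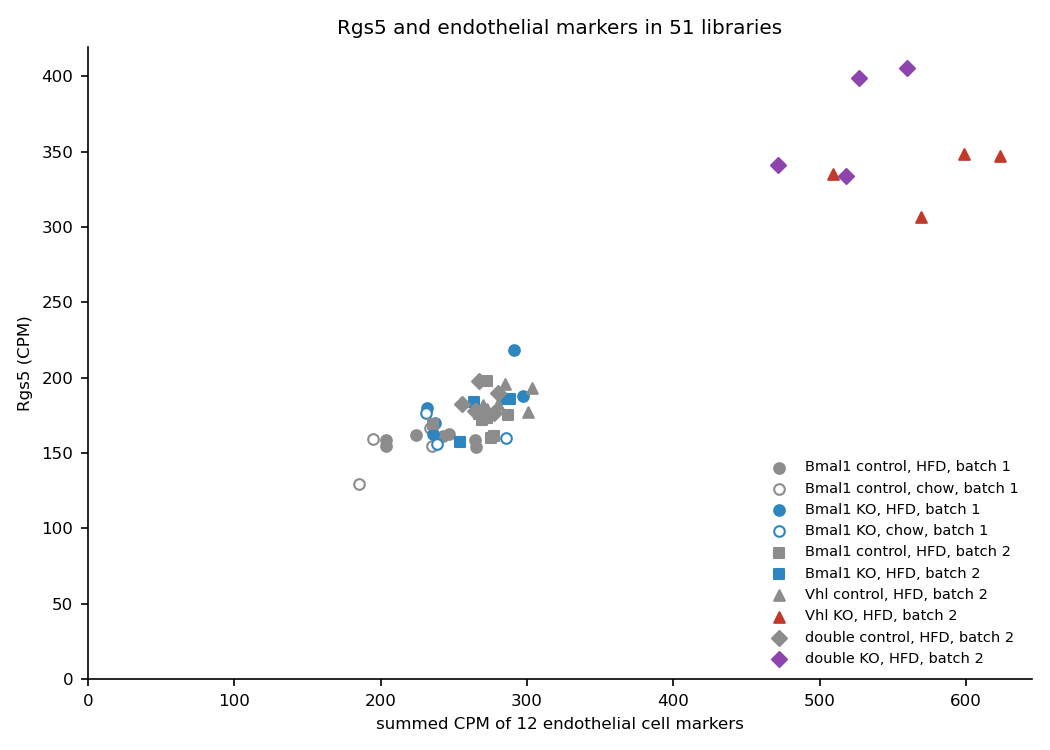
Rgs5 (CPM, vertical axis) against the summed CPM of 12 endothelial markers (horizontal axis) in all 51 libraries, both axes from 0. The 8 animals lacking Vhl (red triangles, purple diamonds) form a separate cloud with both values raised, and the other 43 share the lower one.

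Loss of Bmal1 alone left the 10 genes without a call within either batch. On the high-fat diet in batch 1, edgeR called 0 of 10, against 9% of all genes, with 1 at an unadjusted p under 0.05 (Rgs5), and DESeq2 called 0. On chow it called 0 of 10 against 3.84%, with 0 unadjusted and 0 in DESeq2. In batch 2 it called 0 of 10 against 13.9%, with 0 unadjusted and 0 in DESeq2. Of the 10 log2 fold changes 9 were positive in batch 1 on the high-fat diet (median 0.22, against 0.00 over all genes), 6 on chow (median 0.10) and 7 in batch 2 (median 0.05). No member's groups stood apart in any of these comparisons, against 6.08% of all genes in batch 1 on the high-fat diet, 11.8% on chow and 9.95% in batch 2.

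Rgs5 in batch 1 was at 180.1, 218.5, 170.0, 187.8 and 162.6 CPM in the 5 knockouts on the high-fat diet, and at 154.2, 158.8 and 162.9 CPM in the 7 controls. Knockout 2 was the highest, and only knockout 5 lay within the control range. The change was 0.21 ± 0.08 (adjusted p = 0.112). In batch 2 knockouts 6 to 9 had 185.9, 184.1, 186.0 and 157.1 CPM, against 159.9, 172.8 and 197.6 CPM, and all but the last lay inside the control range (0.04 ± 0.06, adjusted p = 0.751). A fit over both batches with a batch term called Rgs5 alone, at 0.14 ± 0.05 (adjusted p = 0.0419), with 22.4% of all genes called and 11.1% higher. That call was lost when any 1 of 18 libraries was left out, with an adjusted p of up to 0.156 without knockout 2 of batch 1. Myh11 just missed it there (0.21 ± 0.08, adjusted p = 0.0521).

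Among the contractile genes, Acta2 in the knockouts of batch 1 on the high-fat diet was at 45.9, 51.2, 63.8, 51.8 and 46.3 CPM, against 33.0, 41.0 and 51.3 CPM in controls. In batch 2 knockouts 6 to 9 had 43.8, 46.7, 41.2 and 41.2 CPM, against 36.6, 44.9 and 51.7 CPM. The knockouts lay at the upper end of the controls in batch 1 and in their middle in batch 2. The log2 fold changes were 0.28 ± 0.15 and -0.05 ± 0.10. Myh11 was at 15.9, 16.03, 15.9, 19.2 and 16.7 CPM in the knockouts of batch 1, against 12.4, 14.7 and 17.8 CPM in controls, and at 13.9 to 17.4 CPM in those of batch 2, against 11.3, 13.4 and 17.8 CPM. The groups overlapped in both, with 0.20 ± 0.15 (adjusted p = 0.517) and 0.20 ± 0.11 (adjusted p = 0.251). Tagln stood at 0.25 ± 0.13 and 0.05 ± 0.18, and Cnn1 at 0.71 ± 0.48 and 0.22 ± 0.37. The surface proteins showed no call in either batch, with Pdgfrb at 0.12 ± 0.18 and -0.12 ± 0.16, Notch3 at 0.25 ± 0.22 and 0.03 ± 0.15, and Cspg4 at 0.23 ± 0.21 and 0.12 ± 0.15. Kcnj8 (0.14 ± 0.16 and 0.09 ± 0.17) and Abcc9 (-0.09 ± 0.09 and -0.04 ± 0.06) did not pass either.

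On chow, with 3 knockouts and 4 controls, the contractile genes gave 0.22 ± 0.20 for Acta2, 0.21 ± 0.19 for Myh11, -0.18 ± 0.18 for Tagln and -0.64 ± 0.73 for Cnn1. The surface proteins gave -0.01 ± 0.24 for Pdgfrb, 0.13 ± 0.30 for Notch3 and 0.31 ± 0.29 for Cspg4. Rgs5 gave 0.11 ± 0.11, Kcnj8 0.09 ± 0.21 and Abcc9 -0.09 ± 0.11. None passed, at adjusted p-values from 0.727 to 0.991.

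Some genes around them changed after Bmal1 loss. Srf, the gene of serum response factor, fell in batch 1 on the high-fat diet (-0.44 ± 0.10, adjusted p = 0.00196), on chow (-0.65 ± 0.13, adjusted p = 0.00142) and in batch 2 (-0.23 ± 0.08, adjusted p = 0.0387). Synpo2 fell by 0.39 ± 0.09 in batch 1 on the high-fat diet and by 0.30 ± 0.07 in batch 2. Itga7, an integrin chain of muscle fibres and pericytes, rose by 0.55 ± 0.12 and 0.45 ± 0.11. Rgs2 rose by 1.22 ± 0.26 and 1.23 ± 0.14, and Tgfb3 by 0.50 ± 0.13 and 0.65 ± 0.09. Pdgfa fell by 0.41 ± 0.11 in batch 1. Of 12 endothelial markers 1 rose in batch 1 and 1 fell in batch 2. Of 7 markers of satellite cells and myoblasts 3 rose in batch 1 on the high-fat diet and 4 in batch 2. On chow 1 rose. The sum of that list was 83.6 to 94.9 CPM in knockouts against 56.9 to 76.9 CPM in batch 1 on the high-fat diet. In batch 2 it was 84.1 to 108 CPM against 54.1 to 69.2 CPM. Of 9 macrophage markers 2 fell in batch 2. The other Notch genes gave no call among 12 in either batch. The endothelial sum was 231.5 to 297.4 CPM in knockouts and 203.3 to 265.2 CPM in controls of batch 1, and 254.4 to 288.0 against 235.4 to 287.0 CPM in batch 2.

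High-fat diet against chow could be compared within each genotype in batch 1, whose animals on the high-fat diet also serve in the Bmal1 comparison. In floxed controls 1 of the 10 rose, Acta2, with 2.37% of all genes called and 1.51% higher. In Bmal1 knockouts Acta2 and Tagln rose, with 3.28% of all genes called and 1.72% higher. On library totals alone 107 genes rose and 602 fell in controls, and 118 rose and 316 fell in knockouts. Acta2 was at 37.2, 17.7, 23.5 and 24.5 CPM in chow controls 1 to 4 and at 33.0, 41.0 and 51.3 CPM on the high-fat diet. Chow control 1 lay inside the range of the fed group and the other 3 below it. The change was 0.73 ± 0.17 (adjusted p = 0.0183). It did not pass without the 2 chow libraries that held lymphocyte transcripts (0.58, adjusted p = 0.0561), nor without chow control 2 (adjusted p = 0.0607), 3 (0.0767) or 4 (0.0675) alone.

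In Bmal1 knockouts Acta2 was at 33.3, 32.9 and 23.3 CPM on chow, against 45.9 to 63.8 CPM on the high-fat diet. The groups did not overlap (0.80 ± 0.19, adjusted p = 0.021), and the call was lost without chow knockout 3 (0.65, adjusted p = 0.153). Tagln was at 12.6, 16.7 and 12.9 CPM on chow and at 22.7, 24.7, 26.8, 24.5 and 26.6 CPM on the high-fat diet. Here too every fed animal was above every chow animal (0.84 ± 0.17, adjusted p = 0.00377). In controls Tagln was at 21.9, 14.3, 14.0 and 13.8 CPM on chow and 15.8, 21.0 and 27.5 CPM on the high-fat diet, which overlapped through chow control 1 (0.41 ± 0.15, adjusted p = 0.159). It passed without that animal (0.59, adjusted p = 0.0332).

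Acta2, Tagln and Pdgfrb were the members whose fed knockouts all lay above the chow knockouts, against 5.99% of all genes, and no member's groups stood apart in controls, against 3.13%. Pdgfrb moved only from 5.54 to 6.18 CPM on chow to 6.26 to 7.27 CPM (0.17 ± 0.22, adjusted p = 0.782). Myh11 had log2 fold changes of 0.25 ± 0.16 in controls and 0.24 ± 0.18 in knockouts, Rgs5 of 0.06 ± 0.09 and 0.16 ± 0.10, and Abcc9 of -0.15 ± 0.09 and -0.15 ± 0.11, none of which passed. Notch3, Cspg4 and Kcnj8 lay between -0.06 (Kcnj8, controls) and 0.33 (Cspg4, controls). Cnn1 in knockouts showed 1.70 ± 0.68 (adjusted p = 0.193) on 1 to 36 counts per library. Whether the diet effect differed between genotypes was tested directly: edgeR called 0 members and 0 of 12762 genes, with 0 of the 10 at an unadjusted p under 0.05, and DESeq2 called 0 of the 10 and 3 genes in all. For Tagln the difference was 0.43 ± 0.22 (adjusted p = 1).

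**Figure D4:**
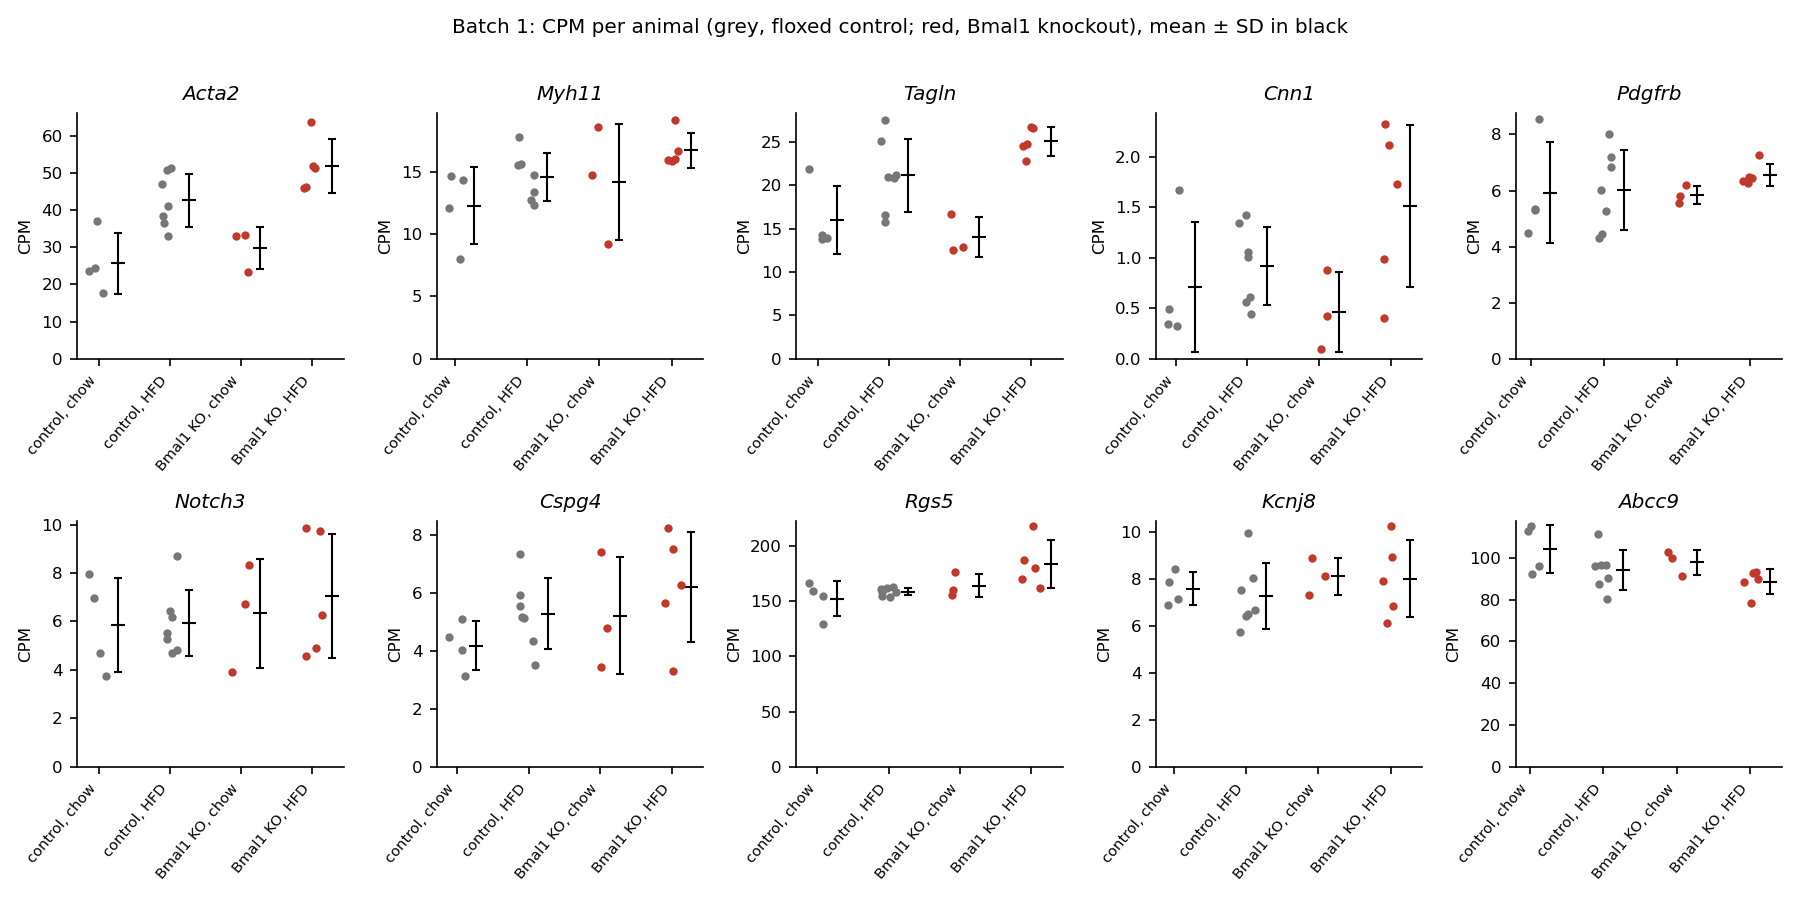
CPM of the 10 mural genes in each animal of batch 1 (grey, floxed control; red, Bmal1 knockout; black, mean ± SD; each panel has its own axis from 0). Acta2 and Tagln of knockouts on the high-fat diet stand above those on chow, while Rgs5 and Abcc9 of the 4 groups overlap.

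Of the other smooth muscle genes, 2 of 19 rose with diet in controls and 3 of 19 in knockouts. They were Cald1, caldesmon (0.43 ± 0.11 and 0.55 ± 0.13), and Mustn1 (1.56 ± 0.25 and 1.25 ± 0.29) in both genotypes, with Mkl1 (0.99 ± 0.26) in knockouts. Without the lymphocyte libraries 1 and 2 of 20 rose. Of 22 other pericyte genes Ednrb rose in controls (0.92 ± 0.23) and Cd248 in knockouts (1.32 ± 0.29). No endothelial or fibre marker passed for diet in either genotype. In knockouts 2 of 10 fibroblast markers (Mfap5, Dpt) and 2 of 9 macrophage markers (Csf1r, C1qb) rose, the latter 6 without the lymphocyte libraries, and in controls 1 macrophage marker (Cd68). The summed macrophage markers were 61.1 to 97.7 CPM on chow and 75.7 to 122 CPM on the high-fat diet in controls, and 44.1 to 73.8 against 80.9 to 119.6 CPM in knockouts. Mitochondrial transcripts took 37.7% ± 3.15 (SD) of counts on the high-fat diet against 28.5% ± 4.1 on chow in controls. In knockouts they took 33.7% ± 3.77 against 26% ± 2.8. The part of these markers and of the mitochondrial share in the diet effect was not tested.

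Within groups, the members also varied together in part. Correlations were taken over all 51 libraries after subtracting each group's mean of log2 CPM, and are given as a description, since genes of 1 library share its depth and scaling. Acta2 and Tagln were the closest pair (r = 0.69), followed by Acta2 and Myh11 (0.49). Rgs5 went with Notch3 (0.40), Kcnj8 (0.40), Pdgfrb (0.39) and Cspg4 (0.37), but less with Acta2 (0.11). Abcc9 ran against Pdgfrb (-0.45) and against Kcnj8 (-0.35), its neighbour on the chromosome. The 12 endothelial markers had a median r of 0.32 with Notch3, 0.32 with Kcnj8, 0.25 with Rgs5, 0.22 with Acta2 and -0.19 with Abcc9. The 12 fibre markers had 0.26 with Abcc9, 0.205 with Rgs5 and 0.15 with Kcnj8. With the other members they lay between -0.12 (Tagln) and 0.01 (Myh11).

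**Figure D5:**
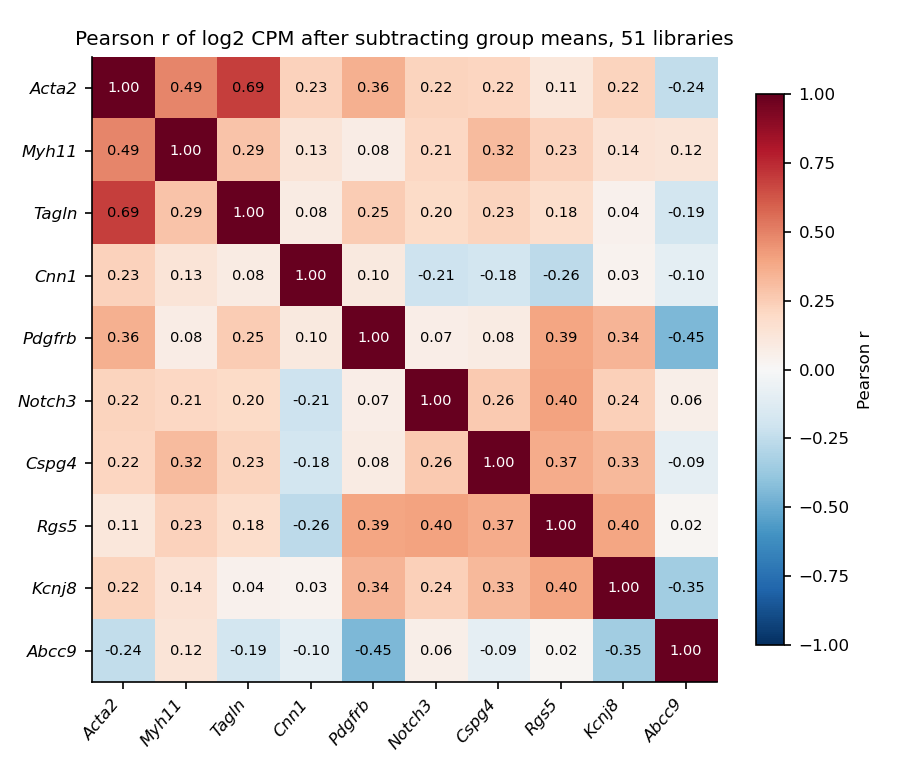
Pearson r of log2 CPM between the 10 genes over 51 libraries after subtraction of group means (red, positive; blue, negative). The square of Acta2 and Tagln is the darkest off the diagonal at 0.69, and the Abcc9 row is the bluest, down to -0.45 with Pdgfrb.

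The genes most like Myh11 in this measure, among 9562 genes, were Uchl1 (r = 0.59), Tbcel (0.59), Itga3 (0.58), Stk40 (0.57) and Filip1l (0.56). Those most like Rgs5 were Tmed1 (0.68), 1810043H04Rik (0.59), Ube2m (0.58), Nudt13 (0.56) and the endothelial cadherin gene Cdh5 (0.56).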

How the data were processed

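Per the labels' protocols, whole snap-frozen gastrocnemius muscle was homogenized in TRIzol, RNA was purified with the Direct-zol kit, and 300 ng went into Lexogen QuantSeq 3′ forward libraries. The deposited values used are raw counts per gene symbol. The authors made these counts, per the submitters' processing notes, with FastQC 0.11.4, STAR 2.6.0 and HTSeq (version not given in the sources used here), and the notes name mm10, GRCm38.p4 and edgeR 3.26.8. The deposited normalized values were not used, and no column of the count tables was left out (0 unused).

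Counts were tested in R 4.3.3 with edgeR 4.0.16: filterByExpr, TMM factors, and the quasi-likelihood test with robust dispersion. A Benjamini-Hochberg adjusted p under 0.05 counted as a call. The groups of each batch shared 1 fit (12762 genes in batch 1, 13093 in batch 2). Bmal1 loss on the high-fat diet was also fitted over both batches with a batch term (24 libraries, 12565 genes). Values are log2 fold changes ± SE or CPM on the effective library sizes. Correlations used log2 CPM with a prior count of 2, and likeness was ranked among genes with a mean of at least 1 in each batch. The labels name an animal per library, and animals bear the titles' numbers. Some Bmal1 knockouts of batch 2 bear other numbers in the count data, and pairing by those was not tested. Same-numbered animals of groups compared did not deviate together: no comparison had every pair over 0.1 (at most 1 pair each, r from -0.293 to 0.174), so the numbers were not taken as pairs. Replicates of a group correlated at 0.943 to 0.974 in batch 1 and 0.965 to 0.984 in batch 2.

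The 10 members, the other gene lists and the tests were chosen with earlier results of these data known. The rule for named genes took all members, up to 4 genes of each other list with the smallest p that pass in a comparison, Arntl and Vhl, and the 5 genes most like Myh11 and Rgs5. In the differences of effects and diet by genotype only some members are printed, and of the other lists only some of these genes. Aoc3, Angpt1, Tgfb2 and Mustn1 after loss of Vhl or of both genes were named after their values were seen. The batch 2 table had 27 symbols changed to dates, and 48294 of 48321 could be joined. The fits were tested on simulated counts. Alternatives were DESeq2 1.42.0, RLE or no scaling, 2 other filters, the groups of a contrast alone, the replicate number as a block, an adjusted p under 0.01, and leaving out each library or those with lymphocyte transcripts. The scaling and lymphocyte alternatives for the other lists were added after the data had been seen. Figures were drawn with matplotlib 3.10.9.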

Additional observations from a re-analysis of the deposited data

Results flagged for a closer look

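The animals that follow lay farther from the rest of their group than Dixon's criterion allows. It was met in 10 of 90 sets of 1 gene in 1 group of 4 to 8 animals, where chance gives about 1 in 20. In batch 1 these were the chow control 1 for Tagln (21.9 CPM, the next at 14.3), the chow control 3 for Cnn1 (1.68 CPM, on few counts), and among Bmal1 knockouts on the high-fat diet animal 4 for Myh11 (19.2 CPM) and animal 2 for Pdgfrb (7.27 CPM). In batch 2 they were, among Bmal1 controls, animal 14 for Cnn1 (2.21 CPM), animal 9 for Notch3 (3.30 CPM, the lowest) and animal 11 for Rgs5 (197.6 CPM). Bmal1 knockout 9 was the lowest for Rgs5 (157.1 CPM, the next at 184.1), Vhl control 2 the lowest for Cspg4 (3.90 CPM, or 3.895 before rounding) and double control 4 the highest for Kcnj8 (10.1 CPM).

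The effect of Vhl loss differed from that of Bmal1 loss in batch 2, by the test of the difference itself, for Acta2 (0.90), Tagln (0.80), Pdgfrb (1.00), Notch3 (0.81), Rgs5 (0.81) and Abcc9 (-0.25, log2). The effect of double loss differed from that of Bmal1 loss for Acta2 (0.70), Myh11 (0.77), Pdgfrb (0.90) and Rgs5 (0.97). The Tagln difference was lost without Vhl knockout 3 (adjusted p = 0.0647) or Bmal1 knockout 6 (0.0501), and that of Abcc9 without any 1 of 10 libraries.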

How the results depend on the processing

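Without scaling factors the median of all genes moved by over 0.1 in 7 comparisons, and the members called became 2 for Bmal1 loss in batch 1 on the high-fat diet, 2 for diet in controls and 3 for Bmal1 loss over both batches. On these library totals Bmal1 loss in batch 1 on the high-fat diet called 1227 of 12762 genes higher and 371 lower. Diet in controls called 107 higher and 602 lower. The members gained for Bmal1 loss in batch 1 were Rgs5 (0.37, adjusted p = 0.00143) and Tagln (0.41, adjusted p = 0.0477), as higher. For diet in controls it was Abcc9, as lower (-0.30, adjusted p = 0.0414). Over both batches they were Myh11 (0.32, adjusted p = 0.00307) and Tagln (0.28, adjusted p = 0.0271), as higher. On that scale the Abcc9 estimate turned positive after Vhl loss (0.066, adjusted p = 0.433), after double loss (0.19, adjusted p = 0.0162) and in the difference of the Vhl and Bmal1 effects (0.027, adjusted p = 0.865), and passed only after double loss. Without a filter on low counts Bmal1 loss over both batches called 0 members, and with an average log2 CPM of at least 1 the double and Vhl effects differed for 1 (Myh11). An adjusted p under 0.01 left 0 members for diet in controls, 1 for diet in knockouts and 0 for Bmal1 loss over both batches. Without the libraries holding lymphocyte transcripts diet in controls called 0 and double loss 5. Of all genes, diet in controls then called 159 higher and 98 lower of 12985, and double loss 2015 and 2204 of 13210. DESeq2 called 1 for the double against the Vhl effect and 2 for Bmal1 loss over both batches. With the titles' replicate number as a block, by which no pairing was found, double loss called 5 and the Vhl against the Bmal1 effect 3. The cause of these changes was not tested.

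Leaving out each library in turn gave 7 to 8 members for Vhl loss, 5 to 8 for double loss, 4 to 6 and 4 to 5 for the Vhl and double effects against the Bmal1 effect, 0 to 1 for the double against the Vhl effect, 0 to 2 for diet in controls, 1 to 2 for diet in knockouts and 0 to 2 for Bmal1 loss over both batches. It gave 0 in every refit for Bmal1 loss within a batch and diet, and for diet by genotype. Of 1037 member values under the other settings 957 kept direction and call, 27 lost a call, 19 gained one, 3 were the reversals above and 31 changed sign uncalled. Of 1770 values without 1 library these numbers were 1637, 46, 12, 0 and 75.

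Counts over all genes moved by over 1.5 times as follows, and stayed within 1.5 times in the other comparisons under these settings. Those of the refits without 1 library are not printed. For diet in controls 302 became 709 without scaling, 492 without a filter and 121 at an adjusted p under 0.01. Double loss went from 4638 to 7008 without scaling. Diet by genotype went from 0 to 1 without scaling, 8 without a filter, 1 with the block and 3 in DESeq2. With the block, Bmal1 loss in batch 2 went from 1820 to 663 and over both batches from 2815 to 1588, the Vhl and double effects against the Bmal1 effect from 3311 to 1373 and from 2191 to 775, and the double against the Vhl effect from 1121 to 500. At an adjusted p under 0.01 Bmal1 loss went from 1149 to 725 on the high-fat diet in batch 1 and from 490 to 258 on chow, diet in knockouts from 419 to 157, and the 3 differences of effects from 3311 to 2084, 2191 to 1297 and 1121 to 545. Chow groups fitted alone gave 313 for Bmal1 loss. Depth limits Cnn1 most, at 1 to 36 counts per library.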
